A study of Homo sapiens with 6 samples.

Results

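BRA-binding sites that lay close to one another but were called in alternative media form the subject of these measurements: FLyA peaks with no overlapping FLyB peak that had a FLyB peak with no overlapping FLyA peak within 10 kb, midpoint to midpoint, together with those FLyB peaks. The R&D Systems lists held 5312 such members, 2588 in FLyA and 2724 in FLyB, of 49551 peaks in all. Both populations derive from H9, an established human embryonic stem cell line, differentiated for 36 h in chemically defined medium with 20 ng/ml FGF2 and 10 μM LY294002, an inhibitor of PI3 kinase. FLyA medium also contained 100 ng/ml activin A and is labelled as giving endoderm progenitors, whereas FLyB medium contained 10 ng/ml BMP4 and is labelled as giving mesoderm progenitors. BRA was immunoprecipitated with an antibody from R&D Systems or from Santa Cruz, 1 library per medium and antibody, so no value has a replicate with the same antibody. The study treated the antibodies as replicate experiments and reported a high correlation of binding between them in each medium. It also checked differences between the media by ChIP-qPCR on selected targets. The cells were sequenced as whole cultures, and peak lists hold no transcript from which the labelled cell types could be checked.

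Brachyury is a T-box transcription factor of the primitive streak, the structure through which mesoderm and endoderm leave the epiblast. Activin signals through SMAD2/3 and BMP4 through SMAD1. A gene of early development is commonly served by several enhancers spread over a wide stretch of DNA, so a factor may occupy different elements around the same gene when the signal changes. Sites of alternative media that lie side by side are places where such a change of position can be looked for.

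Each deposited peak is a 400 bp interval with no height, so the lists record where binding was called but not how strong it was. Absence from a list therefore does not show absence of binding. The lists held 25864 FLyA and 23687 FLyB peaks with the R&D Systems antibody, and 2436 FLyA and 3007 FLyB peaks with the Santa Cruz antibody. The number of reads behind each list is unknown, but per the study the Santa Cruz libraries held fewer unique reads and stood out less from background, which bears on every share of sites met by that antibody. Positions follow hg19, the build named in the submitters' processing notes, and are counted from 1. The gene table at hand belongs to another build and no genome of hg19 was used, so sites are named by position and neither genes nor DNA sequence were assigned.

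Members were chosen by the positions of the R&D Systems peaks in both media, so the counts and distances that follow are descriptions. Of the FLyA peaks 17320, or 67.0%, overlapped no FLyB peak (FLyA-only), and 2588 of these were members, which is 14.9%. Of the FLyB peaks 15129, or 63.9%, overlapped no FLyA peak (FLyB-only), and 2724 of these were members, which is 18.0%. Members thus made up a minority of the medium-specific sites in either population. The 5 kb and 20 kb limits gave 1568 and 4253 FLyA members and 1637 and 4540 FLyB members.

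Partners were often much closer than the 10 kb limit. The median distance from a FLyA member to its nearest FLyB-only peak was 3.87 kb (95% interval of the median 3.67 to 4.06 kb), with quartiles of 1.56 and 6.56 kb. For FLyB members the median to the nearest FLyA-only peak was 3.97 kb (3.83 to 4.14 kb). The first kilobase held 431 FLyA members even though peaks whose midpoints are under 400 bp apart overlap and could not enter it. The next kilobase held 329, and the last one inside the limit held 200. Partners were thus most frequent at the shortest distances, and beyond the limit the kilobase from 10 to 11 kb held 170 FLyA-only peaks. At the limit itself, 22 FLyA members had their nearest partner in the last 0.1 kb inside and 21 FLyA-only peaks had theirs in the first 0.1 kb outside. The distances across the limit ran from 9996 to 10004 bp, so the limit falls at no break in the data.

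**Figure D1:**
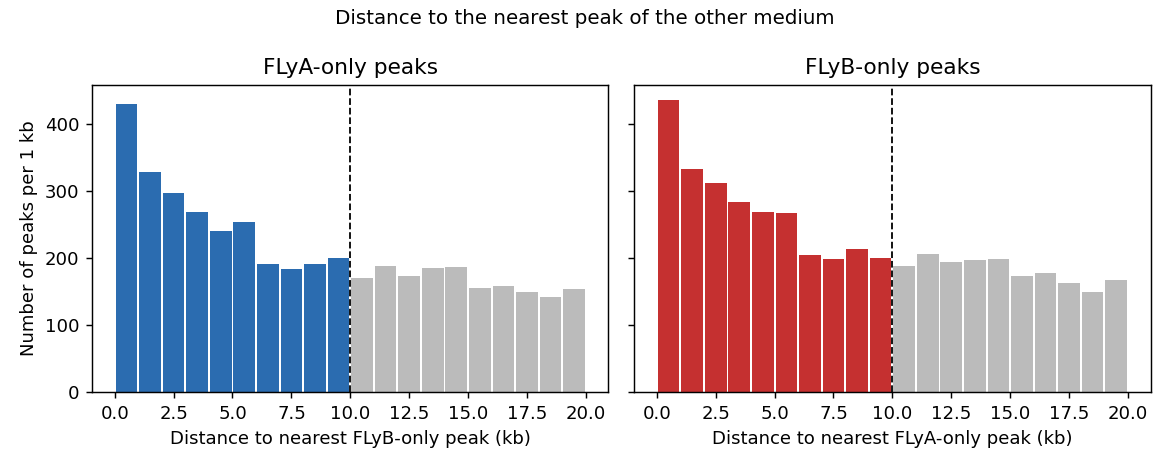
Number of FLyA-only (left) and FLyB-only (right) R&D Systems peaks by distance to the nearest medium-only peak of the other medium, in bins of 1 kb; coloured bars are members, grey bars lie beyond the dashed 10 kb limit. The first bins are the tallest, with 431 FLyA-only and 437 FLyB-only peaks, and the bars near the limit stand at about the height of those just beyond it.

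Some partners were nearly adjacent. The facing edges of the peaks were under 200 bp apart for 202 FLyA members (7.81%), of which 125 were under 100 bp apart. Counting any R&D Systems peak of the other medium, common ones included, 507 FLyA members (19.6%) and 531 FLyB members (19.5%) had one within 1 kb. The larger share, 2081 FLyA and 2193 FLyB members, had none that close.

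Members linked by the rule formed 2179 loci with 3209 pairs of partners. Most loci were simple: 1509 (69.3%, 67.3 to 71.2%) held a single FLyA and a single FLyB site. Another 261 held 1 FLyA and 2 FLyB sites and 210 held 2 FLyA and 1 FLyB site. In these the lone site lay between the others in 100 of 261 loci (38.3%, 32.4 to 44.5%) when it was FLyA and in 86 of 210 (41.0%, 34.2 to 47.9%) when it was FLyB. At least 4 sites were present in 199 loci, and in 42 of these (21.1%, 15.7 to 27.4%) all FLyA sites lay to one side of all FLyB sites. In the others the media were interleaved along the chromosome. Loci are joined only through links between the media, which favours such mixed orders, and no reference order was computed. A locus spanned a median of 5.79 kb and at most 27.0 kb.

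**Figure D2:**
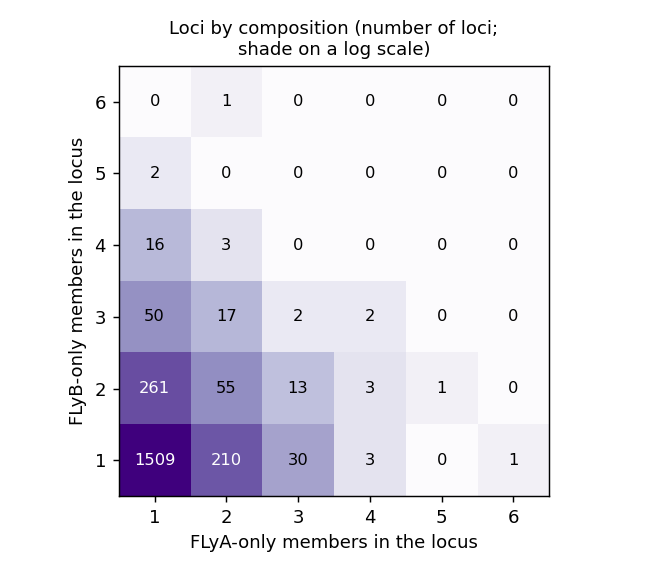
Number of loci for each combination of FLyA-only (horizontal) and FLyB-only (vertical) members, with the shade on a log scale. The corner of 1 FLyA and 1 FLyB site holds 1509 of the 2179 loci, and no locus holds more than 8 sites.

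A group of 5 loci held 7 or 8 members each, the most of all loci, and serve as examples of the order of sites. The largest, chrX:40005870-40026181, held 6 FLyB and 2 FLyA sites over 20.3 kb. Both FLyA sites there lay among FLyB sites, the closest partners being 0.887 kb apart. The reverse was seen at chr14:95229608-95247567, where a single FLyB site, chr14:95239479-95239878, lay within a row of 6 FLyA sites, 0.730 kb from the nearest of them.

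The other large loci were more even. At chr2:66652367-66672639 there were 4 FLyA sites towards the lower coordinates and 3 FLyB sites, 2 of which were the last of the row. At chr2:145263073-145282740 there were 4 FLyA and 3 FLyB sites, with FLyB sites at the lower end. At chr4:111537392-111558151 the 5 FLyA sites enclosed both FLyB sites. Common peaks, that is peaks that overlap between the media, accompanied every one of these 5 loci within 10 kb, with 1 or 2 in the FLyA list. Over all 2179 loci, 591 (27.1%) had a common peak within 10 kb of a member, but these 5 loci are longer than the median locus of 5.79 kb. None of their 36 members was met by a Santa Cruz peak of either medium, which at the limit of 3 counts of 36 allows a share of up to 8.33%. A Santa Cruz FLyB peak was present at the fourth of these loci, where it lay on the common peak, chr2:145281365-145281764 in FLyA.

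**Figure D3:**
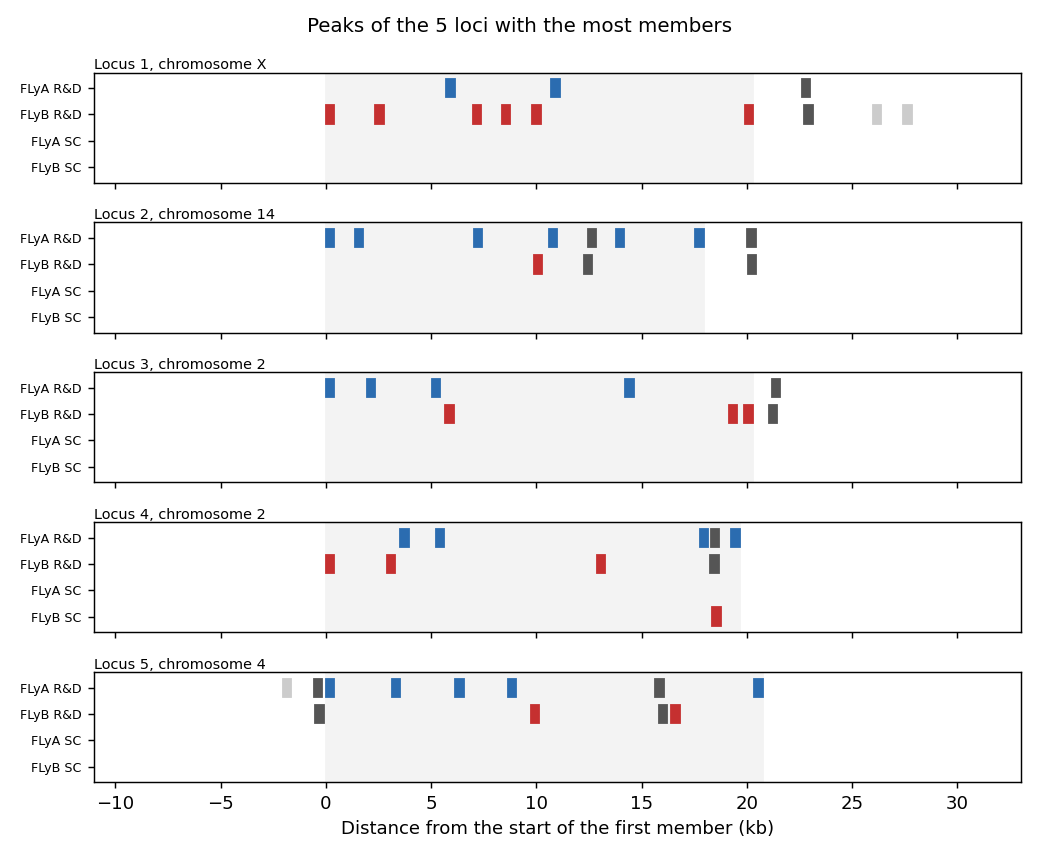
Peaks of the 4 lists at the 5 loci with the most members, by distance in kb from the start of the first member; the pale band spans the locus, blue and red blocks are members (R&D) or Santa Cruz (SC) peaks, dark grey blocks are common peaks and light grey blocks are other medium-only peaks. Locus 1 is mostly FLyB and locus 2 mostly FLyA, and the Santa Cruz rows are empty but for 1 FLyB peak over a common peak at locus 4.

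The rule did not ask for a common peak nearby, but common peaks come from the same R&D Systems lists that the rule used. The shares that follow are therefore descriptions and no independent check. A common peak lay within 10 kb of 630 of the 2588 FLyA members (24.3%, 22.7 to 26.0%), against 12.4% of all FLyA-only peaks and 10.3% of those that were no members. The difference from the latter was 14.0 percentage points (Newcombe 95% interval 12.3 to 15.8) and the member share was higher on 24 of 24 chromosomes. In FLyB the shares were 25.6% of the members (24.0 to 27.3%), 17.7% of all FLyB-only peaks and 16.0% of the others, a difference of 9.67 points (7.94 to 11.5), again higher on 24 of 24 chromosomes. These intervals treat peaks as independent, which neighbouring peaks are not. The 24 chromosomes, here and below, include Y, which held only 2 medium-only peaks, 1 of them a member, in each medium.

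Peaks of the same list also lay near members more often, again a description within the lists that chose members for having a neighbour. Another FLyA-only peak lay within 10 kb of 28.2% of FLyA members, against 22.4% of all FLyA-only peaks and 21.4% of the others, 6.78 points more than the others (4.95 to 8.66). Another FLyB-only peak lay within that distance of 35.2% of FLyB members, against 31.1% and 30.2%, 4.92 points more than the others (2.97 to 6.91). The part of this general grouping of peaks in the share with a common peak was not tested. A common peak stood between the partners in 310 of the 3209 pairs (9.66%, 8.66 to 10.7%). In most pairs the FLyA and the FLyB site thus had no common site between them, but partners lie close together and no reference share was computed. Intervals for pairs, here and below, treat pairs as independent, although pairs of a locus can share members.

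The Santa Cruz lists, which the rule did not use, were then asked whether the medium of each member recurred with another antibody. Of the FLyA members 40 (1.55%, exact Clopper-Pearson 95% interval 1.11 to 2.10%) overlapped a Santa Cruz FLyA peak by at least 1 bp and 22 (0.850%, 0.533 to 1.28%) overlapped a Santa Cruz FLyB peak. Over all R&D Systems FLyA peaks the shares were 3.02% and 5.01%. Of the FLyB members 172 (6.31%, 5.43 to 7.29%) lay on a Santa Cruz FLyB peak and 16 (0.587%, 0.336 to 0.952%) on a FLyA peak of that antibody, against 10.0% and 2.60% of all R&D Systems FLyB peaks. Members of either medium were thus met more often by the Santa Cruz list of their own medium than by that of the other, although most were met by neither. For FLyA members these intervals overlapped. With Santa Cruz midpoints allowed up to 1 kb away the order turned, at 2.16% for the FLyA and 2.43% for the FLyB list. That window can also take in Santa Cruz peaks on a neighbouring FLyB site, as 507 of the 2588 FLyA members had an R&D Systems FLyB peak within 1 kb. The part of such peaks in the turn was not tested.

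The comparison was repeated with the locus as the unit, since partners share their surroundings. Santa Cruz FLyA peaks lay on the members of a single medium in 51 loci, on the FLyA side in 37 of them (72.5%, 58.3 to 84.1%) and on the FLyB side in 14. Santa Cruz FLyB peaks lay on the members of a single medium in 174 loci, on the FLyB side in 161 (92.5%, 87.6 to 96.0%) and on the FLyA side in 13. Where the closest partners were more than 1 kb apart, the own-medium shares were 70.0% (53.5 to 83.4%) of 40 loci for FLyA and 94.7% (89.3 to 97.8%) of 131 for FLyB. Where they were within 1 kb, the shares were 81.8% (48.2 to 97.7%) of 11 loci for FLyA and 86.0% (72.1 to 94.7%) of 43 for FLyB. All of these intervals lay above an even split except that of the 11 loci. Medium-only peaks that were no members leaned the same way, so the lean was not particular to members. A Santa Cruz FLyA peak met 1.38% of these other FLyA-only peaks and 0.508% of the other FLyB-only peaks. A Santa Cruz FLyB peak met 7.72% of the other FLyB-only peaks and 0.204% of the other FLyA-only peaks. There is 1 input library per medium, and which control each list was called against is not given in the sources used here. The part of a shared control in these own-medium shares was not tested.

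Members were also set against medium-only peaks that were no members. The share of FLyA members on a Santa Cruz FLyA peak exceeded that of the other FLyA-only peaks (1.38%) by 0.161 points, with an interval that included 0 (-0.295 to 0.740). In FLyB the members were met by a Santa Cruz FLyB peak less often than the other FLyB-only peaks (7.72%), by 1.41 points (Newcombe 95% interval of the difference -2.39 to -0.331), and the share was lower on 17 of 24 chromosomes. Against FLyB-only peaks beside a common peak but without a partner (7.58%) the interval included 0 (-2.78 to 0.195).

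**Figure D4:**
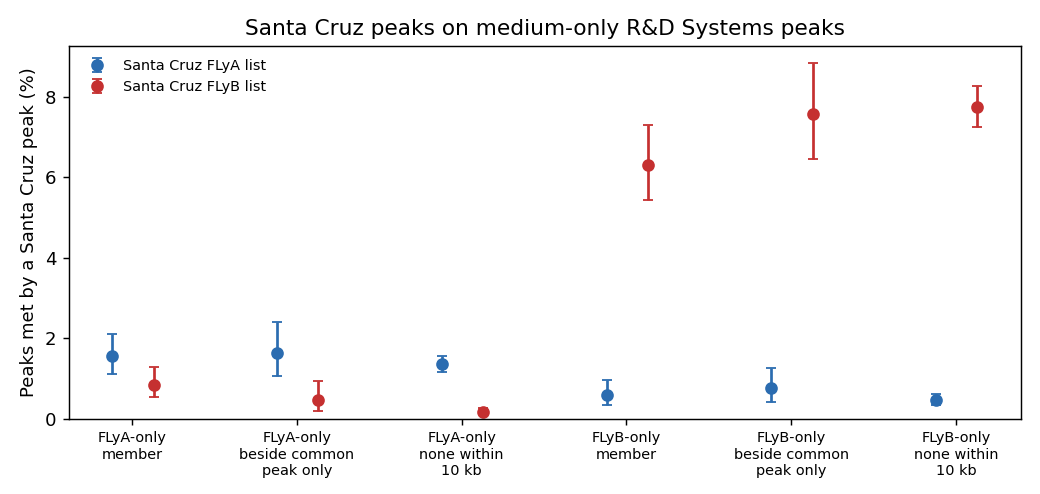
Share of medium-only R&D Systems peaks met by a Santa Cruz FLyA (blue) or FLyB (red) peak, for members, for peaks with a common peak but no partner within 10 kb and for peaks with neither; points are shares and bars exact 95% intervals. FLyB members stand at 6.31% on the FLyB list, and FLyA members at 0.850% on the FLyB list against 0.174% for FLyA-only peaks with neither.

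The list of the other medium met FLyA members more often than the remaining FLyA-only peaks. A Santa Cruz FLyB peak lay on 0.850% of FLyA members and on 0.204% of the others, a difference of 0.646 points (Newcombe 95% interval 0.346 to 1.08), with the member share higher on 14 and lower on 7 of 24 chromosomes. Against FLyA-only peaks beside a common peak but without a partner (0.460%) the difference was 0.390 points, with an interval that included 0 (-0.175 to 0.885). The share among members depended on how close the nearest R&D Systems FLyB peak was. Within 1 kb, 19 of 507 FLyA members (3.75%, 2.27 to 5.79%) were met by a Santa Cruz FLyB peak. Beyond 1 kb it was 3 of 2081 (0.144%, 0.0297 to 0.421%). Of the FLyA-only peaks that were no members, 2 of 223 (0.897%, 0.109 to 3.20%) within 1 kb of a FLyB peak were met, an interval that overlaps that of the members. Leaving out all peaks within 1 kb of a peak of the other medium lowered the share to 0.103%.

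These Santa Cruz FLyB peaks were selected for overlapping a FLyA member, so their midpoints had to lie under 400 bp from its midpoint. Of the 22, 19 were closer to the FLyA member than to any FLyB member, and their midpoints were a median of 51.0 bp from its midpoint. FLyB members lie at least 400 bp from any FLyA member, so this order was largely fixed by the selection. Common FLyB peaks also lie at least 400 bp away, since a FLyA member overlaps no FLyB peak. A Santa Cruz peak at the median of 51.0 bp is therefore closer to the FLyA site than to any R&D Systems FLyB peak. With midpoints up to 398 bp away, this need not hold for each of the 22. Among FLyA members met by 1 Santa Cruz list alone, that list was FLyA in 5 of 17 (29.4%, 10.3 to 56.0%) with a partner within 1 kb and in 31 of 37 (83.8%, 68.0 to 93.8%) with a partner farther away. The others among the FLyA-only peaks gave 204 of 234 (87.2%, 82.2 to 91.2%). FLyA members close to a FLyB partner were thus more often called in FLyB with the Santa Cruz antibody than those farther away.

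For FLyB members the intervals overlapped between near and distant partners. A Santa Cruz FLyB peak met 7.09% (4.87 to 9.92%) of those with a FLyA partner within 1 kb and 6.35% (4.97 to 7.97%) of those with a partner at 5 to 10 kb. The list of the other medium, Santa Cruz FLyA, met 6 of 531 FLyB members (1.13%, 0.416 to 2.44%) within 1 kb of any R&D Systems FLyA peak. Beyond 1 kb it met 10 of 2193 (0.456%, 0.219 to 0.837%), the same direction as in FLyA but with overlapping intervals. Among FLyB members met by 1 Santa Cruz list alone, that list was FLyB in 31 of 33 with a partner within 1 kb (93.9%, 79.8 to 99.3%) and in 137 of 147 with a partner farther away (93.2%, 87.8 to 96.7%). The other FLyB-only peaks gave 94.6% (93.0 to 95.9%).

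**Figure D5:**
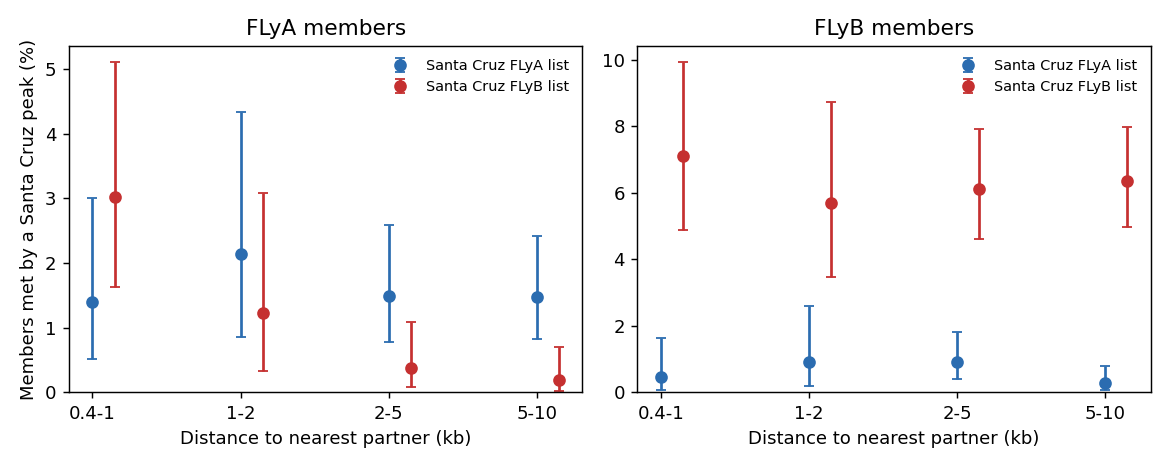
Share of FLyA members (left) and FLyB members (right) met by a Santa Cruz FLyA (blue) or FLyB (red) peak, by distance in kb to the nearest partner; points are shares and bars exact 95% intervals, and the vertical scales differ. On FLyA members the FLyB list goes from 3.02% at 0.4 to 1 kb to 0.196% at 5 to 10 kb, while the FLyA list stays between 1.39% and 2.13%.

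Both partners carried a Santa Cruz peak of their own medium in 5 of 3209 pairs (0.156%, 0.0506 to 0.363%), which lay in 4 loci. On chromosome 11 the FLyA site chr11:56427114-56427513 had a Santa Cruz FLyA peak with its midpoint 3 bp away, and the FLyB site chr11:56418714-56419113, at a distance of 8.40 kb, had a Santa Cruz FLyB peak 17 bp away. No Santa Cruz peak of the other medium lay on either site and no common peak lay within 10 kb. On chromosome 3 the FLyA site chr3:32877453-32877852 and the FLyB site chr3:32884555-32884954, 7.10 kb apart, were likewise met by the Santa Cruz list of their own medium alone. The Santa Cruz midpoints there were 169 and 381 bp away, so the latter overlap was marginal. A further FLyA site there, chr3:32885498-32885897, lay within 1 kb of that FLyB site, and the Santa Cruz FLyB peak stood between them without reaching the FLyA site.

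At the other such loci Santa Cruz peaks of the other medium lay on the partners too. On chromosome 13 the FLyA site chr13:46343180-46343579 and the FLyB site chr13:46343654-46344053 were 474 bp apart, and the Santa Cruz FLyB peak overlapped both. On chromosome 10 the FLyA site chr10:42400046-42400445 and the FLyB sites chr10:42395962-42396361 and chr10:42401649-42402048 were each met by Santa Cruz peaks of both media. This locus lies between 42 and 43 Mb, where the Santa Cruz lists are dense in either medium. Without that window, which holds 2 FLyA and 6 FLyB members, the locus-level shares on the own-medium side were 74.0% for FLyA and 92.5% for FLyB. Of all members, 4 in FLyA (0.155%) and 4 in FLyB (0.147%) were met by both Santa Cruz lists, the chromosome 10 sites above among them. The same held for 226 of all 25864 FLyA peaks (0.874%) and 237 of all 23687 FLyB peaks with the R&D Systems antibody. Of these, 222 in FLyA and 224 in FLyB were common peaks. Among medium-only peaks that were no members it held for 0 of 14732 in FLyA and 9 of 12405 (0.0726%) in FLyB.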

How the data were processed

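H9 cells in 2 media were profiled by BRA ChIP-seq with 2 antibodies. The study's methods give a Genome Analyzer II as the sequencer and MACS as the peak caller. The submitters' processing notes name Bowtie 0.12.7 and hg19. The authors deposited peak positions, 1 list per library, as chromosome, start and end. A MACS threshold of 1e-12 stands in the headers of the Santa Cruz lists, whereas those of R&D Systems have no header. The 2 input libraries were not analysed here. Lists called with different thresholds differ in length, which bears on every share of overlap.

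Positions were compared with Python 3.11.15, NumPy 2.4.6, SciPy 1.17.1 and statsmodels 0.14.6, and overlaps were checked with bedtools 2.31.1. The functions were tested on simulated lists. Overlap means at least 1 bp. Shares have exact Clopper-Pearson 95% intervals, and differences Newcombe intervals, which cover counting error only. No p-value was computed, as no medium and antibody has a replicate. Members and lists were chosen with earlier results of these data known. In the text, 5 loci were named for having the most members, and pairs for carrying own-medium Santa Cruz peaks on both partners. Planned results on nearest genes, gene lists, promoters and motifs needed an hg19 annotation or genome and were not run. The locus-level and distance-resolved shares were added after the data were seen.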

Additional observations from a re-analysis of the deposited data

How the results depend on the processing

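Of 10 alternatives, 2 were chosen after seeing the data. Neighbour limits of 5 kb and 20 kb gave 1568 and 4253 FLyA members, 1637 and 4540 FLyB members and median distances of 2.09 and 7.61 kb, by construction. Requiring at least 200 bp of overlap for a common peak made partly overlapping peaks medium-only, with a median of 2.83 kb, 2.17% of FLyA members on Santa Cruz FLyA peaks, 1.99% on Santa Cruz FLyB peaks, and a common peak within 10 kb of 22.7% of FLyA and 23.8% of FLyB members. Leaving out peaks within 1 kb of the other medium gave a median of 4.73 kb. Allowing Santa Cruz midpoints within 1 kb gave own-medium shares of 2.16% in FLyA and 8.11% in FLyB, and 2.43% of FLyA members near a Santa Cruz FLyB peak. In FLyA the other-medium share then exceeded the own-medium share, but a window of 1 kb can reach Santa Cruz peaks on a neighbouring FLyB site. A common peak lay within 20 kb of 34.2% of FLyA and 35.3% of FLyB members. Autosomes with chromosome X, merged peaks, and leaving out chromosome 17 or the window on chromosome 10 kept the median distance and the Santa Cruz shares within their intervals and the counts of members within 1.5 times. The shares with a common peak were recomputed for the last pair of these alone, and stayed within their intervals. No paired analysis was possible because each medium and antibody has 1 library. Read counts per list are unknown, and so is the part of the lists' unequal lengths that comes from the threshold.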

Other observations

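Leaving aside chromosome Y, which held 1 member in each medium, the share of FLyA-only peaks that were members ran from 11.2% on chromosome X to 24.2% on chromosome 17. In FLyB it ran from 15.4% on chromosome 9 to 22.4% on chromosome 19, with 21.2% on chromosome 17. Chromosome 17 also held the most medium-only peaks for its length between the first and last peak, 9.69 FLyA-only and 12.9 FLyB-only peaks per Mb, whereas chromosome X held 4.73 and 3.36. The FLyA site had the lower coordinate in 1624 of 3209 pairs (50.6%, 48.9 to 52.4%), an interval that includes an even split.

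The Santa Cruz peaks themselves met members seldom. Of the 2436 Santa Cruz FLyA peaks, 1.64% lay on a FLyA member and 0.657% on a FLyB member. Of the 3007 Santa Cruz FLyB peaks, 5.72% lay on a FLyB member and 0.732% on a FLyA member, and 5 lay on members of both media.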
